A study of Mus musculus with 12 samples.

Results

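MAGE family genes and other germline-type genes were examined in CT26 cells with and without Mll3, with the members taken by symbol alone: genes whose symbol begins with Mage, Xlr, Syce or Sycp, or with Tex, Tdrd or Spata and a digit, plus Taf7l. In the deposited gene count table, 40 of 17718 rows matched. The rule also allowed Dazl, Ddx4, Mael, Stag3 and Prame, and those 5 genes were not analysed here. In the reference list of mouse gene names, 137 symbols fit the rule, and those without a row in the count table were likewise not analysed here. A symbol is a historical label: many Tex ("testis expressed") and Spata ("spermatogenesis associated") genes are used in most cells.

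Type I MAGE genes, such as the Magea and Mageb groups, are mostly X-linked, are active in germ cells and silent in most adult tissues, and are switched on again in many tumours, where their peptides can be seen by T cells. Type II MAGE genes, such as Maged1 and Magee1, are used broadly. MAGE proteins share a MAGE homology domain through which many of them bind RING-type ubiquitin ligases. In somatic cells the germline program is known to be kept silent by DNA methylation, by H3K9 methylation and by the Polycomb complex PRC1.6, which binds E2F6 and MGA/MAX motifs in promoters.

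CT26 is a mouse colorectal carcinoma cell line. RNA from 3 Mll3 wild-type and 3 Mll3 knock-out samples, all untreated and carrying the same batch date in the labels, was polyA-selected and made into strand-specific libraries. These 6 of the 12 samples of the series were used. Mll3 is the former name of Kmt2c, a histone H3K4 methyltransferase acting at enhancers. The knock-out columns are headed sg1 to sg3. The sources used here do not say whether these numbers are guides or replicates, whether each is a clone or a pool, or whether the cells of each library were grown apart, and the tests can then see no more than the spread among the 6 libraries, which may be technical.

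The libraries held 9559658 to 13406013 counts, so that 1 count was worth 0.0786 to 0.108 CPM (the count scaled to a common library size with TMM factors). Kmt2c itself lay between 24.9 and 26.2 CPM with wild-type Mll3 and between 11.2 and 16.0 CPM without it. The groups did not overlap, and Kmt2c fell by 0.87 on the log2 scale (SE 0.129, adjusted p = 4.33e-08, edgeR). The count table does not show the edit itself, and a remaining RNA level is no measure of protein. Every log2 change given here is knock-out over wild-type. Of 13013 genes tested with edgeR's quasi-likelihood F test, 66.2% passed an adjusted p of 0.05, 33.1% higher and 33.2% lower in the knock-out. With that background, a call on a single gene is common, and its size and per-library values carry the description.

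The promoter windows of the 4 Magea genes are shown first because the largest change of the set was in Magea10. Each is the RefSeq window (GRCm38.p6, the assembly of mm10) from 250 bases before to 50 bases after the annotated start, read 5′ to 3′ on the gene's minus strand, with CpG pairs in capitals. They lie at chrX:72386809-72387108 for Magea10, chrX:154949520-154949819 for Magea3, chrX:154926066-154926365 for Magea6 and chrX:154995801-154996100 for Magea8.
Magea10: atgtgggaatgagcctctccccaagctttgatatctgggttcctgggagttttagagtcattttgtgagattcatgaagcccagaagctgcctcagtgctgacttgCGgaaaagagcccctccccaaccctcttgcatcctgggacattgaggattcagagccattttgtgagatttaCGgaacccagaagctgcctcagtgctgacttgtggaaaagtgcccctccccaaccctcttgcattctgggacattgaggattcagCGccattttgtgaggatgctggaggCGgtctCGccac
Magea3: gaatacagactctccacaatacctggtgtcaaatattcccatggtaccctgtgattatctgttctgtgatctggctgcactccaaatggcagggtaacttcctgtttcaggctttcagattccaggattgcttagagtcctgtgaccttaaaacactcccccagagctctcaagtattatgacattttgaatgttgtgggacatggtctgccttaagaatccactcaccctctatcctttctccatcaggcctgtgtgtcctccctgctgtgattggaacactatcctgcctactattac
Magea6: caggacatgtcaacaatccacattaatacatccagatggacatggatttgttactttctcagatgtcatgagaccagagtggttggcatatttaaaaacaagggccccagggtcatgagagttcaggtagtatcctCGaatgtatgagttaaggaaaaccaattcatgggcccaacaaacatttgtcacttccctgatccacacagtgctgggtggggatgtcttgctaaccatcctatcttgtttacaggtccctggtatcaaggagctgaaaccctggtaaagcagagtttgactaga
Magea8: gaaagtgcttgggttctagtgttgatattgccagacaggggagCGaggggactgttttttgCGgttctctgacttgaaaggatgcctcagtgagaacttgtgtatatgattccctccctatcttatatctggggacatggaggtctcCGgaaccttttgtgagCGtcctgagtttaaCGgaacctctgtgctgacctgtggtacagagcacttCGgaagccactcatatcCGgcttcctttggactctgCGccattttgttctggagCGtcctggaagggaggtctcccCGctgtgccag
The Magea10 and Magea8 windows lie at the 5′ end of the gene. Those of Magea3 and Magea6 surround annotated starts inside genes whose 5′ ends are at 154959031 and 154936074. The CpG numbers and identities of the 4 windows therefore compare unlike starts. The windows hold 5, 0, 1 and 10 CpG pairs in that order. Pairwise alignments of these 4 windows gave identities of 50.6% to 59.1%, the highest for Magea10 and Magea8. The alignments were global, with 70 to 120 gap positions. Unrelated windows were not aligned, so the identities alone do not show how alike the windows are. Reads from the transcripts of closely related Magea genes can map to more than one copy, and how such reads were counted is not given in the sources used here, so counts of single Magea genes are uncertain where copies are alike.

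Magea10 (X chromosome, 72381870 to 72386858) had 0 counts in each of the 3 wild-type libraries. In the knock-out libraries sg1, sg2 and sg3 it had 321, 335 and 273 counts. That is 28.9 ± 2.60 CPM (SD, n = 3), at least 100.1-fold higher than the level that a floor of 3 counts per wild-type library allows (adjusted p = 2.75e-30, edgeR). All 3 knock-out libraries carried the transcript at a like level, and leaving out any 1 library did not end the call. Magea10 passed the filter on low counts through the knock-out alone, so it had to differ. In bulk RNA, a transcript present in every cell and one present at a high level in some of the cells cannot be told apart.

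Absence in all wild-type libraries together with reads in all knock-out libraries was seen for 284 of 17718 genes, or 1.6%. Among these 284, Magea10 had the highest mean CPM in the knock-out, a rank that also reflects transcript length. The reverse pattern, reads in all wild-type libraries and none in any knock-out library, was seen for 70 genes, or 0.395%, with no MAGE, Tex, Tdrd, Xlr, Syce, Sycp or Spata gene among them.

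**Figure D1:**
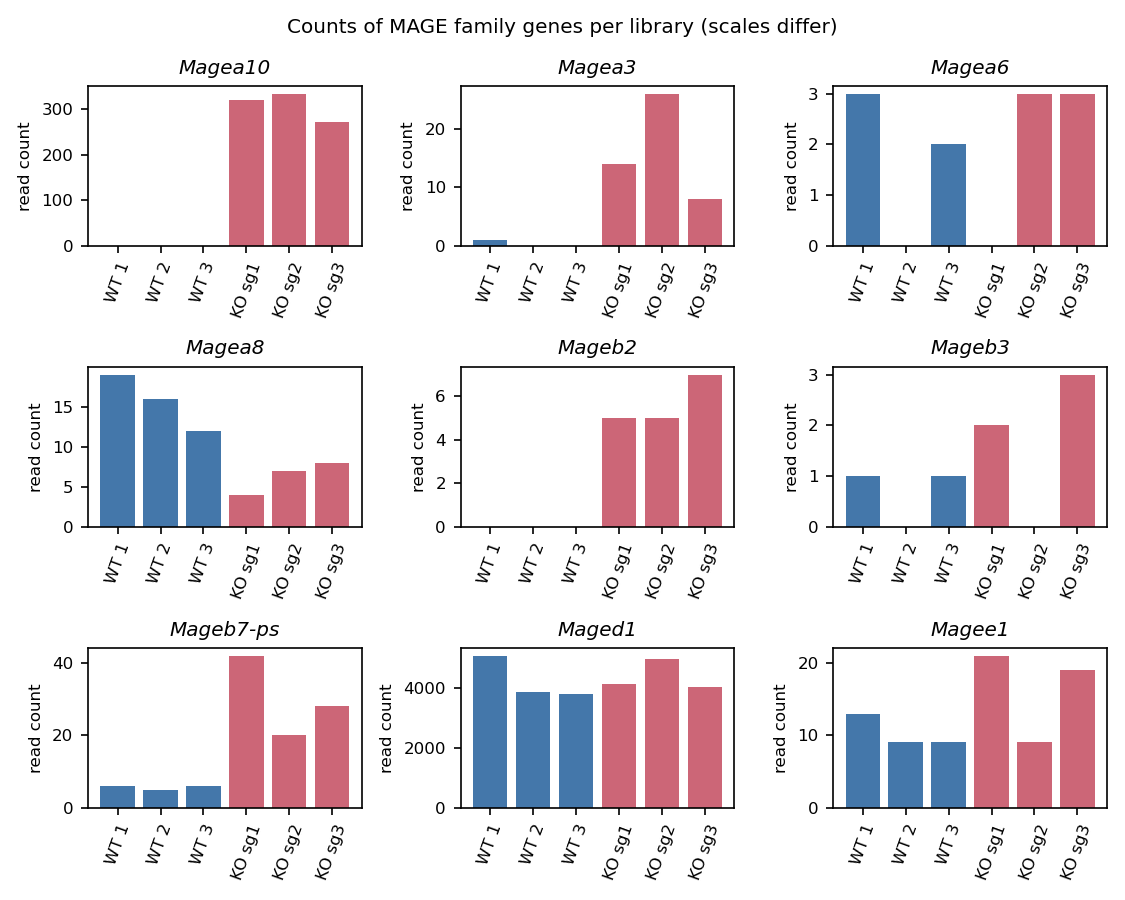
Read counts of the 9 MAGE family genes in each library, 1 bar per library, with wild-type (WT) in blue and knock-out (KO) in red. The y axis is the raw read count and its scale differs between panels. Magea10 stands at 0 in all 3 wild-type libraries and at 273 to 335 in the knock-out libraries, while Magea8 goes the other way.

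A second X-linked Magea gene, Magea3, had 1, 0 and 0 counts in wild-type and 14, 26 and 8 in the knock-out, so every knock-out library was above every wild-type library. The ratio of summed, depth-scaled counts was 47.4 (95% exact binomial interval 8.12 to 1912, counting error only). Magea3 was below the filter on low counts, so it has no value among the 13013 genes. With no filter, where 51.3% of 17718 genes were called, it passed (adjusted p = 1.06e-06, edgeR).

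Magea6 had 3, 0 and 2 counts in wild-type and 0, 3 and 3 in the knock-out. Its groups overlapped, and at this depth no difference was detectable. Magea3 and Magea6 lie beside Magea8 on the X chromosome, and these neighbouring, related copies gave different patterns.

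Magea8 had 19, 16 and 12 counts in wild-type and 4, 7 and 8 in the knock-out. The groups did not overlap, with every knock-out library below every wild-type library. Magea8 fell by 1.31 on the log2 scale (SE 0.503, adjusted p = 0.0198, edgeR), a level 2.47-fold higher in wild-type. It passed the filter through wild-type alone, so it had to differ. This call rests on few reads: without wild-type library 1 or 2 the adjusted p was 0.0514 or 0.0635, and without sg1 or sg2 it was 0.0879 or 0.0512 (edgeR).

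Mageb2, an X-linked type I gene, had 0 counts in all wild-type libraries and 5, 5 and 7 in the knock-out. Against the floor of 3 counts per library it was at least 1.84-fold higher. It was below the filter, and passed with no filter (adjusted p = 0.00213, edgeR). Mageb2 was, with Magea10, one of 2 genes of the set with no read in any wild-type library. By the make-up of the count table, both then had to have reads in all knock-out libraries.

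Mageb7-ps, named as a pseudogene of the Mageb group, had 6, 5 and 6 counts in wild-type and 42, 20 and 28 in the knock-out, with a clear gap between the genotypes. It rose 5.17-fold, a log2 change of 2.37 (SE 0.464, adjusted p = 1.19e-05, edgeR). Mageb7-ps passed the filter through the knock-out alone, so it had to differ. Mageb3, the only Mage gene of the table outside the X chromosome (chromosome 2), had 1, 0 and 1 counts in wild-type and 2, 0 and 3 in the knock-out. These overlap, and no difference was detectable at this depth. Mageb3 also overlaps Ctdspl2 by 695 bases, and whether reads were counted by strand is not given in the sources used here.

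Over all 7 type I MAGE genes, the summed level was 2.14 to 2.36 CPM in wild-type and 31.7 to 38.0 CPM in the knock-out. Without Magea10 the knock-out sum was 5.28 to 6.56 CPM, still above every wild-type library. Of the 3 type I genes tested, 2 rose (Magea10 and Mageb7-ps) and 1 fell (Magea8). All 3 passed the filter on low counts through 1 genotype alone, so they had to differ in these directions. With no filter all 7 were tested and 5 were called, beside 51.3% of all 17718 genes under that setting.

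The type II gene Maged1, whose protein binds the neurotrophin receptor p75 and netrin receptors of the UNC5 family, was at 399, 394 and 411 CPM in wild-type, against 405, 429 and 386 CPM in the knock-out. The groups overlapped. Its log2 change was 0.02 (SE 0.0390, adjusted p = 0.650, edgeR). Upper-quartile scaling gave 0.18 (adjusted p = 6.33e-05, edgeR) and library-size scaling 0.14 (adjusted p = 0.000798, edgeR), both of which also move the median of all genes, while removal of each chromosome's median gave -0.04 and leaving out sg2 -0.03. Magee1, whose protein binds dystrobrevin, had 13, 9 and 9 counts in wild-type and 21, 9 and 19 in the knock-out. It was not tested, and its groups overlapped.

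The share of genes called in the set was near that of the whole table. Of the 27 that passed the filter, 17 were called, or 63.0%, beside 66.2% of all genes tested. Of these, 9 rose and 8 fell. Their median log2 change was 0.02, the same to 2 decimals as that of all genes tested, and their median absolute change was 0.42 beside 0.41. Changes of at least 2-fold were called for 7, of which 5 rose and 2 fell. Of all genes tested 15.1% had such a call, 1316 genes higher and 649 lower. Magea10, Mageb7-ps, Tdrd12 and Magea8 are among the 7 and had to differ, as given below. Values of wild-type and knock-out libraries did not overlap for 19 of the 27, beside 68.7% of all genes tested.

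The filter bears on these counts. Tdrd12, Magea10 and Mageb7-ps reached the filter's level of about 0.986 CPM in the knock-out group alone, and Magea8 in wild-type alone, so these 4 had to differ. The same was true of 346 and 63 genes in the table. The other 13 genes were below the filter in both groups, and with no filter 3 of them passed, all higher in the knock-out: Magea3, Mageb2 and Spata17.

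Each family is small, and its counts are read beside the 33.1% higher and 33.2% lower over all genes tested. Of 6 tested Tex genes 4 rose and 1 fell, and 3 of the 4 rises (Tex2, Tex261 and Tex264) lost the call when single libraries were left out. Of 10 tested Spata genes 1 rose and 4 fell, and the other 5 were not called. Of 3 tudor genes 1 rose and 1 fell, and of 3 synaptonemal complex and Xlr genes 1 rose. Taf7l fell. Of the 10 genes of the set on the X chromosome 6 were tested and 5 called, beside 65.3% of all 363 tested X-linked genes, whose median log2 change was 0.07.

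**Figure D2:**
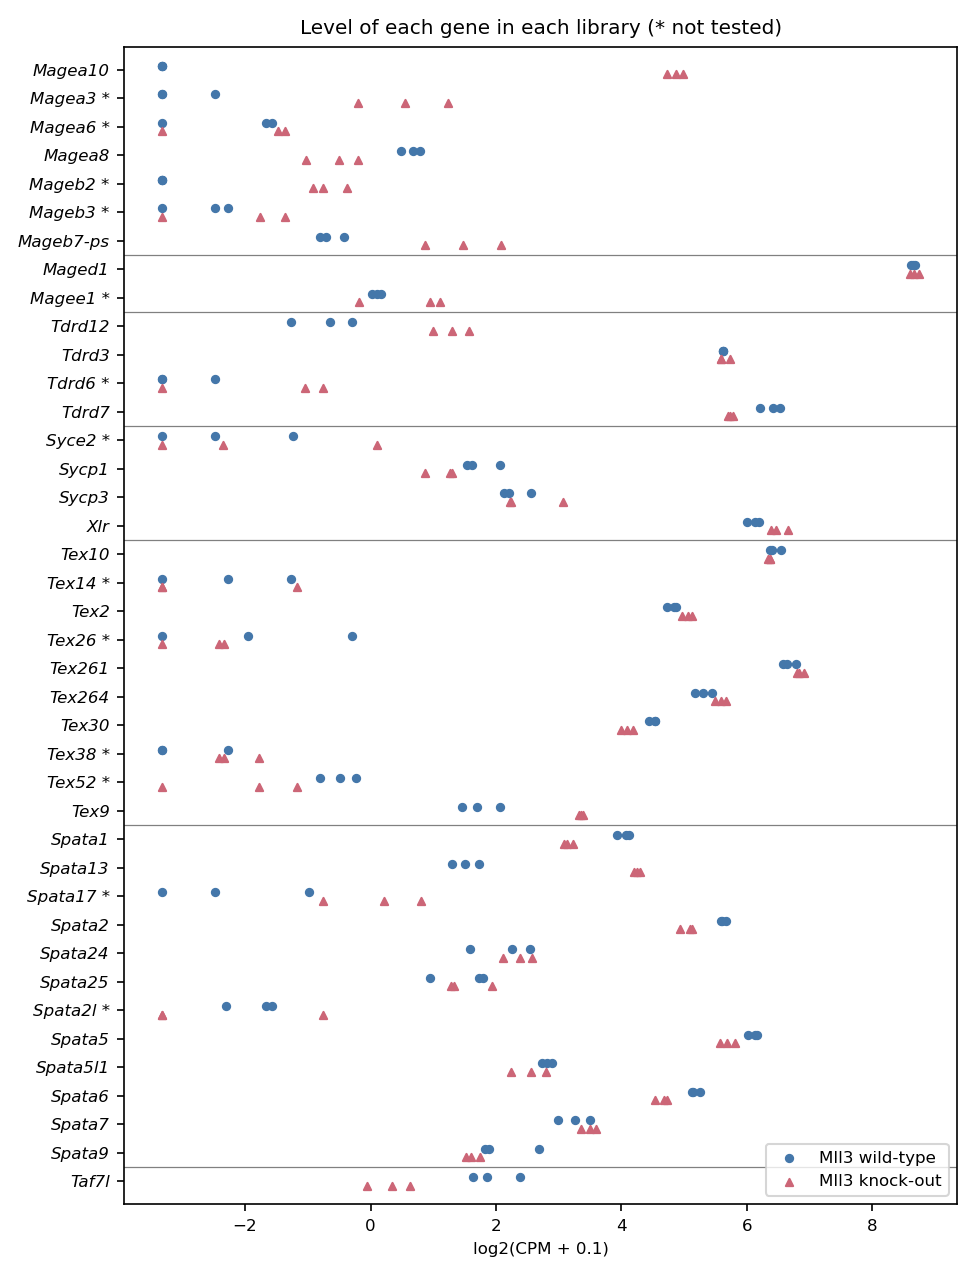
Level of each of the 40 genes in each library, as log2(CPM + 0.1) on the x axis, with 1 row per gene grouped by family. Blue circles are the 3 wild-type libraries, red triangles the 3 knock-out libraries, and an asterisk marks genes below the filter. Magea10, Spata13 and Tex9 show a wide gap between the groups, with the knock-out to the right, and Taf7l and Spata1 a gap with the knock-out to the left.

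Taf7l, the X-linked germ-cell paralogue of the TFIID subunit Taf7, had 45, 50 and 28 counts in wild-type and 12, 10 and 15 in the knock-out. Every knock-out library was below every wild-type library. Taf7l fell by 1.74 on the log2 scale (SE 0.369, adjusted p = 4.41e-05, edgeR), a level 3.34-fold higher in wild-type. A germ-cell gene on the same chromosome as Magea10 thus moved the opposite way. Over all alternatives its log2 change lay between -1.94 and -1.51.

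Tudor-domain proteins read methylated arginine on PIWI proteins and help make piRNAs, the small RNAs that silence transposons in germ cells. Tdrd12, needed for secondary piRNA production in mouse testis, had 4, 7 and 5 counts in wild-type and 24, 22 and 30 in the knock-out. The groups did not overlap, and it rose 4.59-fold (log2 change 2.20, SE 0.477, adjusted p = 6.21e-05, edgeR). Tdrd12 passed the filter through the knock-out alone, so it had to differ.

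Tdrd7, found in the germ-cell chromatoid body and in the lens, was at 92.1, 84.8 and 74.2 CPM in wild-type, against 54.8, 52.9 and 51.9 CPM in the knock-out. It fell by 0.66 on the log2 scale (SE 0.0711, adjusted p = 5.59e-12, edgeR), with no overlap. Tdrd3, a partner of topoisomerase 3-beta used in most cells, was at 49.0, 49.3 and 49.1 CPM in wild-type and 48.0, 53.0 and 48.0 CPM in the knock-out. Those ranges overlap (log2 change 0.02, SE 0.0776, adjusted p = 0.844, edgeR). Tdrd3 lies on chromosome 14, whose tested genes had a median log2 change of 0.35. Against that median Tdrd3 stood at -0.33 (adjusted p = 0.000207, edgeR), while upper-quartile scaling gave 0.18 (adjusted p = 0.0398, edgeR) and leaving out sg2 gave -0.04. No direction can therefore be given for Tdrd3. Tdrd6, another chromatoid body gene, had 1, 0 and 0 counts in wild-type and 5, 0 and 4 in the knock-out and was not tested.

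Synaptonemal complex genes build the structure that joins paired chromosomes in meiosis, and transcripts of 3 of them were detected at low counts in both genotypes. Sycp1, the transverse filament protein, had 52, 29 and 26 counts in wild-type and 24, 20 and 24 in the knock-out. The ranges did not overlap, but the difference missed the threshold (log2 change -0.64, SE 0.329, adjusted p = 0.0805, edgeR).

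Sycp3, an axial element protein, had 74, 42 and 42 counts in wild-type and 85, 53 and 48 in the knock-out, with overlapping CPM (adjusted p = 0.393, edgeR). Without sg1 its log2 change went from 0.24 to -0.11. Sycp3 overlaps Chpt1 by 3724 bases. Syce2, of the central element, had 1, 0 and 3 counts in wild-type and 10, 0 and 1 in the knock-out, so that 1 library held most of its reads. Syce2 overlaps Gcdh by 1060 bases.

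Xlr, an X-linked lymphocyte-regulated gene related to Sycp3 and belonging to a family of similar copies, was at 69.6, 73.2 and 63.6 CPM in wild-type, against 83.6, 100.6 and 87.8 CPM in the knock-out. The groups did not overlap, and Xlr rose by a log2 change of 0.40 (SE 0.0671, adjusted p = 6.90e-07, edgeR). Reads shared with other Xlr copies may be counted here or dropped, so the value is uncertain.

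Among the other Tex genes, Tex9 changed most. It had 52, 26 and 29 counts in wild-type and 106, 115 and 106 in the knock-out. The genotypes were well apart, and Tex9 rose 3.04-fold (SE 0.216 on the log2 scale, adjusted p = 3.53e-09, edgeR). Tex9 overlaps the neighbouring meiosis gene Mns1 by 527 bases, and Mns1 rose too, by a log2 change of 1.08 (SE 0.249, adjusted p = 0.000142, edgeR).

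The abundant Tex genes are not germline-restricted and changed little. Tex264, a receptor for autophagy of the endoplasmic reticulum, was at 36.1, 39.5 and 43.6 CPM in wild-type, against 44.7, 50.6 and 47.8 CPM in the knock-out (log2 change 0.27, SE 0.0850, adjusted p = 0.00422, edgeR). Tex261, a membrane protein related to a yeast cargo adaptor of vesicle export, was at 95.2, 99.3 and 109.8 CPM in wild-type and 113.1, 120.0 and 110.6 CPM in the knock-out (log2 change 0.18, SE 0.0571, adjusted p = 0.00486, edgeR). Both rises were small, and both lost the call without wild-type library 1 (adjusted p = 0.0586 for Tex264 and 0.0654 for Tex261, edgeR) and without sg2 (adjusted p = 0.0538 and 0.0757, edgeR).

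Tex2, which has a lipid-binding domain and sits at endoplasmic reticulum contact sites, was at 29.1, 28.5 and 26.3 CPM in wild-type and 34.7, 33.3 and 31.1 CPM in the knock-out (log2 change 0.24, SE 0.0977, adjusted p = 0.0289, edgeR). Its call was lost without wild-type library 3 (adjusted p = 0.111), sg1 (0.121) or sg2 (0.0823) in the same edgeR test, with no filter (0.0563) and relative to its chromosome (0.0994), and with DESeq2 (adjusted p = 0.054). Tex30 fell by 0.42 (SE 0.122, adjusted p = 0.00219, edgeR), from 22.6 ± 0.897 to 16.9 ± 1.12 CPM (SD, n = 3 each), and passed no longer with upper-quartile scaling (adjusted p = 0.0535, edgeR) or relative to its chromosome (adjusted p = 0.0995, edgeR).

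Tex10, part of a complex used in ribosome production, was at 84.2, 92.7 and 82.1 CPM in wild-type and 80.8, 82.3 and 82.7 CPM in the knock-out. The ranges overlapped, with a log2 change of -0.07 (SE 0.0615, adjusted p = 0.289, edgeR) that was 0.08 with upper-quartile scaling. The other Tex genes were below the filter. Tex14, needed for the bridges between germ cells, had 4, 0 and 1 counts in wild-type and 0, 4 and 0 in the knock-out. Tex52 had 6, 6 and 7 counts in wild-type and 0, 4 and 2 in the knock-out, and its groups did not overlap. The gene itself overlaps Foxm1 by 377 bases. Tex26 and Tex38 had at most 7 counts in any library.

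Spata13 (also called Asef2), a guanine nucleotide exchange factor that binds the tumour suppressor APC, had the largest change among the Spata genes. It had 41, 27 and 22 counts in wild-type and 186, 227 and 197 in the knock-out. The groups stood far apart, and Spata13 rose 6.70-fold (log2 change 2.74, SE 0.187, adjusted p = 2.46e-19, edgeR). It lies on chromosome 14, whose median was 0.35, and relative to that median its value was still 2.40.

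The other 4 called Spata genes fell, each by less than 2-fold and each without overlap. Spata1 went from 16.4 ± 1.11 to 8.77 ± 0.481 CPM (log2 change -0.91, SE 0.153, adjusted p = 6.99e-07, edgeR). Spata2, which joins the deubiquitinase CYLD to the linear ubiquitin ligase complex in TNF signalling, was at 48.1, 48.3 and 50.6 CPM in wild-type and 34.7, 30.4 and 34.0 CPM in the knock-out, and fell by 0.57 on the log2 scale (SE 0.0856, adjusted p = 5.67e-08, edgeR). Spata1 overlaps Ctbs by 8648 bases and Spata2 overlaps Rnf114 by 594 bases, so reads from these partners may be included.

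Spata5, an AAA-type ATPase needed for ribosome maturation, was at 71.5, 65.0 and 70.2 CPM in wild-type and 51.0, 56.3 and 47.7 CPM in the knock-out, and fell by 0.41 on the log2 scale (SE 0.0732, adjusted p = 1.80e-06, edgeR). Spata6, needed to build the sperm connecting piece, went from 36.0 ± 1.72 to 24.9 ± 1.72 CPM (log2 change -0.53, SE 0.0985, adjusted p = 4.06e-06, edgeR). The direction of both was the same under every alternative run.

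Spata5l1, a partner of Spata5, Spata7, a gene of the photoreceptor cilium, Spata24, Spata25 and Spata9 were tested and not called. Spata9 had 46, 62 and 32 counts in wild-type and 30, 32 and 34 in the knock-out (adjusted p = 0.0775, edgeR). Its CPM did not overlap, and it passed without wild-type library 1 (adjusted p = 0.0472, edgeR) and without library 3 (adjusted p = 0.0325, edgeR). Spata17, a calmodulin-binding sperm gene below the filter, had 1, 4 and 0 counts in wild-type and 5, 19 and 11 in the knock-out, with summed counts 6.92 times as high after scaling (95% exact binomial interval 2.70 to 22.6), and passed with no filter (adjusted p = 0.00341, edgeR). Spata17 overlaps Gpatch2 by 906 bases, so reads from this partner may be included. Spata2l, a relative of Spata2, had at most 5 counts in any library.

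**Figure D3:**
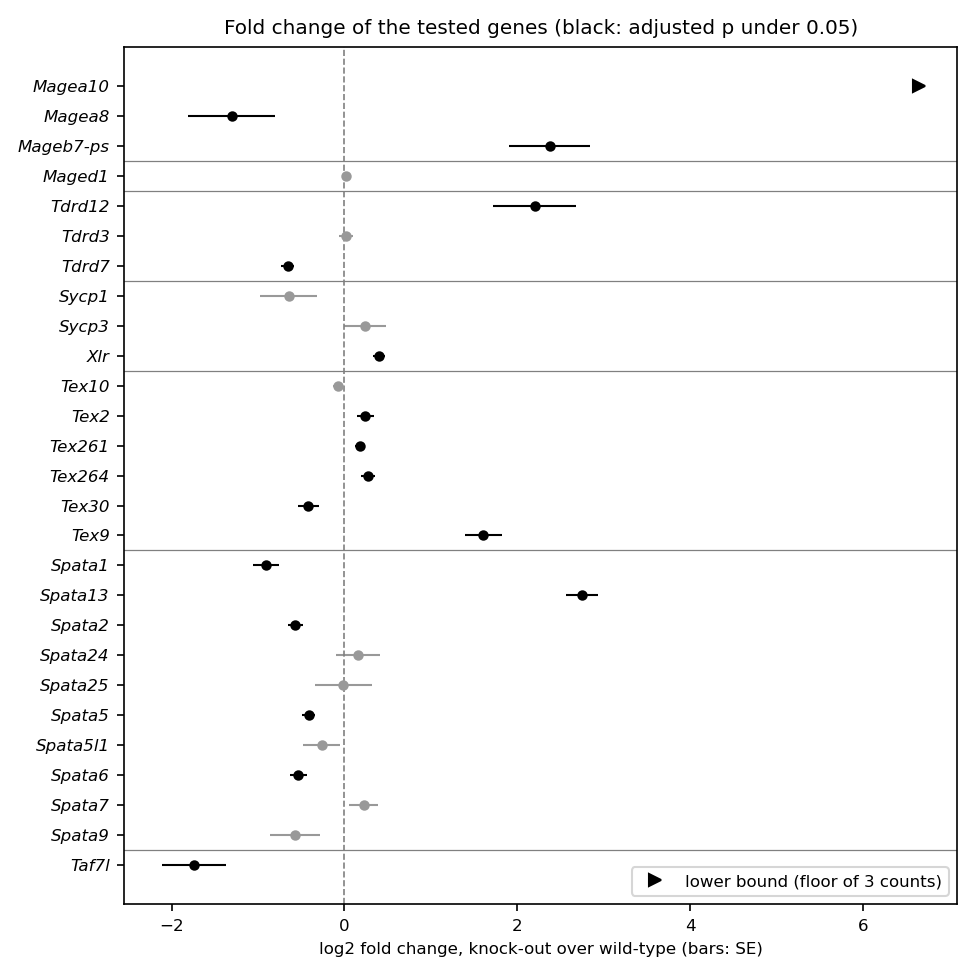
Log2 fold change (knock-out over wild-type, x axis) of the 27 tested genes, 1 row per gene by family, with bars of 1 SE; black points passed an adjusted p of 0.05 (edgeR) and grey points did not. The arrow for Magea10 is the lower bound from a floor of 3 counts per wild-type library. Rises of over 2 on this scale are seen for Spata13, Mageb7-ps and Tdrd12, and Taf7l and Magea8 lie farthest to the left.

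The chromosomal surroundings of the changed genes were read next, taking tested genes that start within 500 kb. Beside Magea10 there was a single tested gene, Gabre, a GABA-A receptor subunit 124.9 kb away. Gabre had 0 counts in all wild-type libraries and 11, 23 and 15 in the knock-out, so it was at least 5.21-fold higher (adjusted p = 2.56e-07, edgeR). It passed the filter through the knock-out alone, so it had to differ. The third gene of the table in that window, Gm1141, had 9, 7 and 6 counts in wild-type and 9, 9 and 4 in the knock-out and overlapped. Gm1141 is farther from Magea10, at 449.4 kb.

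At other loci the called neighbours moved with the gene of the set, against it or both ways. Their counts are read beside 33.1% higher and 33.2% lower over all genes tested. Near Tex9, Zfp280d fell by 2.68 on the log2 scale (SE 0.406, adjusted p = 6.96e-08, edgeR) while Tex9 and Mns1 rose. Near Tdrd12, which rose, Dpy19l3 went from 1.34 ± 0.344 CPM to 0 counts in all 3 knock-out libraries. Dpy19l3 passed the filter through wild-type alone, so it had to differ. Near Spata5, which fell, 4 genes rose by log2 changes of 1.20 to 1.53: the growth factor gene Fgf2, the centrin gene Cetn4, Nudt6, which overlaps Spata5 by 340 bases, and the Bardet-Biedl chaperonin gene Bbs12. Near Taf7l, which fell, 5 of 10 tested neighbours also fell, by 0.21 (Cstf2) to 0.51 (Gla) on the log2 scale, and 2 rose, among them Armcx1 by a log2 change of 1.52 (SE 0.250, adjusted p = 4.33e-07, edgeR). Both tested neighbours of Xlr, Mospd1 and Gm14584, fell while Xlr rose. Near Mageb3, 7 of 10 tested neighbours fell and the other 3 were not called. Around Spata13, of 3 tested neighbours 1 was called, Mipep, at 0.70. Mageb2 and Mageb7-ps had no tested neighbour within 500 kb.

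The promoter windows differ between families. RefSeq gave 43 windows for 35 of the 40 genes. Their median was 17 CpG pairs per 300 bases, beside 20 for the 11975 windows of genes tested and 7 for all 32851 windows in the table. The 5 type I MAGE windows had a median of 5, and Mageb3, the autosomal one, had 20. Those of Magea3 and Magea6 lie inside the gene, so this median mixes internal starts with 5′ ends. Some windows of other families, such as that of Spata9, are internal too. Those of the synaptonemal complex and Xlr genes had a median of 19.

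**Figure D4:**
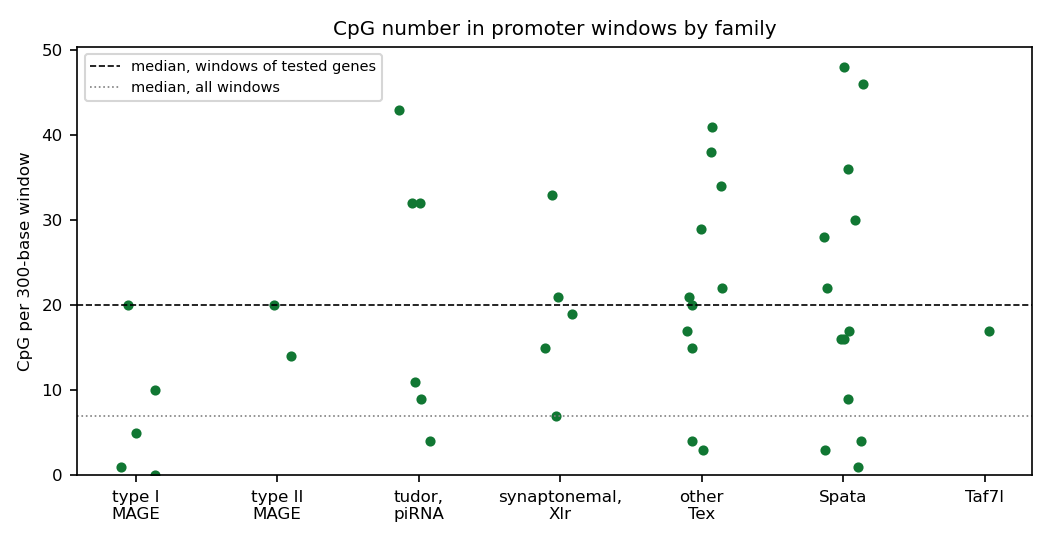
Number of CpG pairs (y axis) in each 300-base promoter window, 1 point per window, by family on the x axis. The dashed line is the median of windows of genes tested, 20, and the dotted line that of all windows, 7. Of the 5 type I MAGE windows, only that of Mageb3 reaches the dashed line. The windows of Magea3 and Magea6, and some of other families, surround starts inside the gene.

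The following windows are shown because they hold motifs of the complex PRC1.6. TCCCGC is the E2F6-type motif and CACGTG the E-box bound by MGA/MAX; both were searched on both strands, together with GGCGGGAA (which contains the reverse complement of TCCCGC, so each match is also a match of that motif), CCGGAA and TATAAA. Capitals mark TCCCGC and CACGTG on either strand, and GCCATTTTG, described after them. The windows lie at chrX:134476441-134476740 on the minus strand for Taf7l, chr3:102936051-102936350 on the minus strand for Sycp1 and chr10:88459337-88459636 on the plus strand for Sycp3.
Taf7l: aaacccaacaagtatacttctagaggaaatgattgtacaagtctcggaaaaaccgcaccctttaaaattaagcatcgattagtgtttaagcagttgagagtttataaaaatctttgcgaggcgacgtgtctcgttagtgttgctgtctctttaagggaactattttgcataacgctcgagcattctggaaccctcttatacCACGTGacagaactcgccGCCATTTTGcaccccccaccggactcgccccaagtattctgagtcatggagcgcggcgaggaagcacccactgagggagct
Sycp1: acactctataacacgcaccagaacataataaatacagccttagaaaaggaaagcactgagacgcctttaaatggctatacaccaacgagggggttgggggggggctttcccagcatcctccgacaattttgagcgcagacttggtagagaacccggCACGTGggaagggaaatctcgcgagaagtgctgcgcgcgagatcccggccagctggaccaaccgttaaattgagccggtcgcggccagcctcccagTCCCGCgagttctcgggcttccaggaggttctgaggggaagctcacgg
Sycp3: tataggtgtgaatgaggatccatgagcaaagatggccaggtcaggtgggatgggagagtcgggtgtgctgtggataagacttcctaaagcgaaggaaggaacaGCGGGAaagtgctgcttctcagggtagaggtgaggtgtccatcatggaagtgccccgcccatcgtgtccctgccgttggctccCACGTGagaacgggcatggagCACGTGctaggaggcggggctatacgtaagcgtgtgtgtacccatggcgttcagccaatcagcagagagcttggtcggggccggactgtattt
TCCCGC was found in all 5 windows of the synaptonemal complex and Xlr genes, in 51.2% of the 43 windows, in 34.7% of windows of genes tested and in 20.0% of all windows. CACGTG was found in 3 of 5 synaptonemal and Xlr windows, those of Sycp1, Sycp3 and 1 of 2 of Syce2, beside 9.89% of windows of genes tested and 7.15% of all. Of the remaining windows, those of Taf7l and Tex10 held CACGTG. GGCGGGAA was in 9.30% of the 43 windows and 3.99% of windows of genes tested, CCGGAA in 25.6% and 27.9%, and TATAAA in 6.98% and 7.01%. None of the 5 type I MAGE windows held TCCCGC or CACGTG. Sycp1 and Sycp3, which hold both motifs, were not called, and Taf7l, which holds CACGTG, fell. A match of letters is a description and no evidence that a factor binds there.

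After the sequences had been seen, the shared letters GCCATTTTG were also searched. They occur 2 times in the Magea10 window and 1 time each in those of Magea8 and Taf7l, and in no other window of the set. Of all windows 0.569% hold them, and of windows of genes tested 0.910%. The 3 genes with these letters moved in different directions, Magea10 up and Magea8 and Taf7l down.

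Genes known for silencing or marking germline promoters were counted from lists. Counts of these and all later lists, cell type markers included, are read beside 33.1% higher and 33.2% lower over all genes tested. Of 19 listed germline repressor genes, mainly of PRC1.6 and the H3K9 methylation machinery, all were tested. Of these 10 rose and 8 fell, with a median log2 change of 0.17. The smallest p-values were those of Trim28, the corepressor that recruits Setdb1 and also a ubiquitin ligase bound by MAGE proteins in human cells, which rose (log2 change 0.48, SE 0.0404, adjusted p = 1.15e-15, edgeR), and of Wdr5 and the H3K9 methyltransferase Setdb1, which fell by 0.57 and 0.58 (SE 0.0486 and 0.0591, adjusted p = 1.25e-15 and 9.66e-13, edgeR). Within PRC1.6, Mga (-0.54) and Pcgf6 (-0.53) fell and E2f6 (0.46) rose. With each chromosome's median removed the list gave 5 higher and 8 lower, and without sg3 7 and 8, so the majority turns over.

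Of 13 tested DNA methylation genes 4 rose and 6 fell, with a median of -0.25. The methyl-CpG binding protein gene Mbd2 fell by 0.84 (SE 0.0541, adjusted p = 2.46e-20, edgeR), and the maintenance genes Uhrf1 and Dnmt1 rose, by log2 changes of 0.76 and 0.65 (SE 0.0518 and 0.0475, adjusted p = 2.41e-19 and 3.81e-18, edgeR). The de novo enzyme gene Dnmt3b had 9, 12 and 12 counts in wild-type and 61, 38 and 31 in the knock-out and also rose (1.94, SE 0.382, adjusted p = 1.29e-05, edgeR), and the demethylation enzyme gene Tet2 fell by 1.19 (SE 0.145, adjusted p = 2.39e-10, edgeR). Dnmt3a was not called (log2 change -0.28, adjusted p = 0.0704, edgeR). With upper-quartile scaling the list gave 6 higher and 5 lower, so its majority turns over too.

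**Figure D5:**
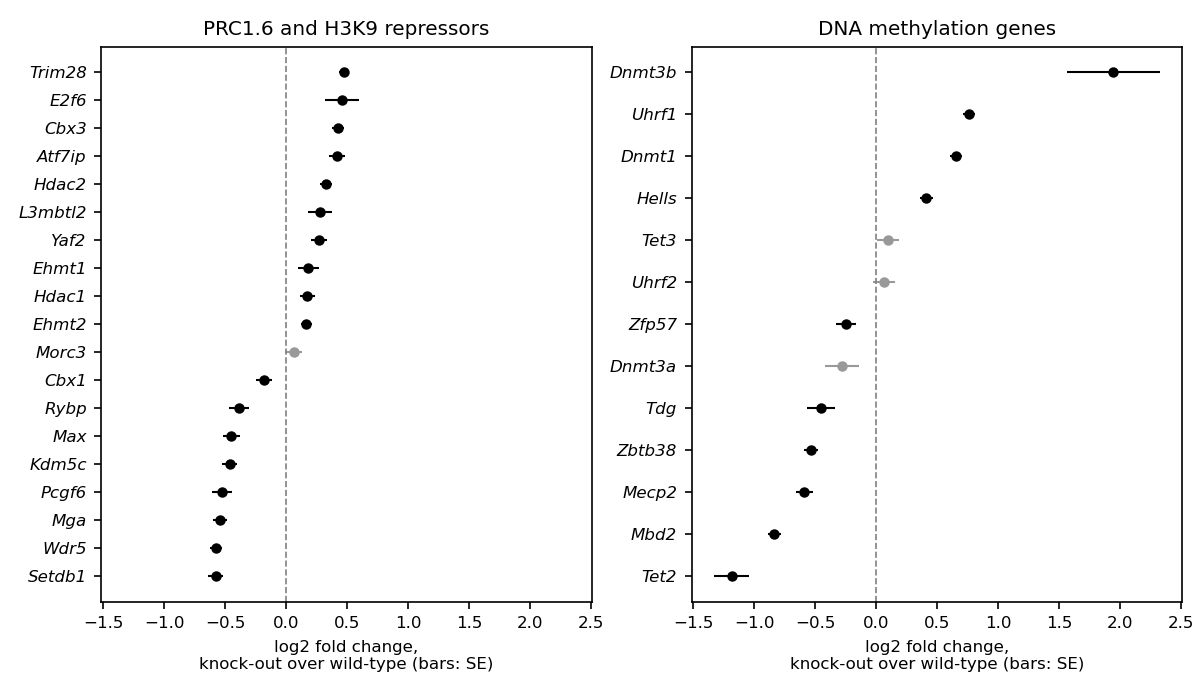
Log2 fold change (knock-out over wild-type, x axis) of 19 listed germline repressor genes, mainly of PRC1.6 and H3K9 methylation (left), and 13 DNA methylation genes (right). Bars are 1 SE. Black points passed an adjusted p of 0.05 (edgeR) and grey points did not. Trim28 tops the left panel and Setdb1 ends it, and on the right Dnmt3b, Uhrf1 and Dnmt1 are to the right of 0 and Tet2 and Mbd2 to the left.

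Further germline genes were counted in the same way. Of 22 meiosis genes with a row, 11 were tested, 3 rose and 3 fell, or 5 and 3 with upper-quartile or library-size scaling and without wild-type library 3, 5 and 2 with chromosome medians removed, and 6 and 3 with no filter. Spo11, the enzyme that makes meiotic DNA breaks, had 19, 10 and 35 counts in wild-type and 89, 99 and 107 in the knock-out and rose by a log2 change of 2.17 (SE 0.277, adjusted p = 1.87e-09, edgeR). Zcwpw1, a reader of PRDM9-made histone marks, rose by 1.42 (SE 0.281, adjusted p = 1.46e-05, edgeR), and the AAA ATPase gene Trip13, which is also used in mitosis, fell by 0.64 (SE 0.0691, adjusted p = 6.01e-12, edgeR).

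Of 10 further piRNA pathway genes with a row 4 were tested. Spocd1, which directs DNA methylation to transposons in mouse germ cells, and the piRNA transcription factor gene Mybl1 rose, by log2 changes of 1.99 (SE 0.313) and 0.50 (SE 0.107), with adjusted p = 1.58e-07 and 4.49e-05 (edgeR). Gtsf1, a PIWI cofactor gene, fell by 1.84 (SE 0.582, adjusted p = 0.00464, edgeR), from 14, 18 and 11 counts to 1, 8 and 3; it passed the filter through wild-type alone, so it had to differ. Of 11 further germ cell and cancer-testis genes tested 3 rose and 2 fell, led by Dppa4 (1.42, SE 0.139, adjusted p = 2.20e-13), Taf4b (-0.83, SE 0.0985, adjusted p = 1.25e-10) and Oip5 (0.62, SE 0.155, adjusted p = 0.000401), all by edgeR. That split was 6 and 1 under upper-quartile scaling, 5 and 1 if scaled by library size, 5 and 2 without wild-type library 1, 2 and 1 without library 2, 2 and 2 with chromosome medians removed or without sg2, and 3 and 1 without sg3.

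Of 20 listed genes of MAGE partners and relatives 12 had a row, and the other 8 were not analysed here. The 12 include genes of ubiquitin ligases, of the SMC5/6 complex and of other partners. All 12 were tested, and 5 rose and 3 fell. Smc6 fell by 0.54 (SE 0.0410, adjusted p = 1.41e-17, edgeR), Trim28 rose as given above, and the netrin receptor gene Unc5b rose by 0.71 (SE 0.0679, adjusted p = 1.19e-13, edgeR).

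Markers of other cell types were read in the same libraries. Of 14 spermatid and oocyte markers a single one had a row, Gdf9, with at most 4 counts in any library. Of 7 Sertoli and Leydig markers with a row 3 were tested and 1 was called, with a median log2 change of -0.08. Star was lower in every knock-out library than in every wild-type library but was not called (log2 change -0.71, SE 0.349, adjusted p = 0.0697, edgeR). Sox9 overlapped and was not called (log2 change -0.08, SE 0.146, adjusted p = 0.626, edgeR). Rhox5, an X-linked homeobox gene also active in many tumour lines, rose from 297 to 323 CPM (log2 change 0.12, SE 0.0394, adjusted p = 0.00726, edgeR), a call lost relative to its chromosome (log2 change 0.05, adjusted p = 0.24, edgeR), without wild-type library 2 (0.0657) and without sg2 (0.07). The list summed to 306 to 320 CPM in wild-type and 332 to 347 CPM in the knock-out, nearly all of it Rhox5. The other 13 spermatid and oocyte markers were not analysed here.

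Several markers of colon epithelium and of fibroblasts moved with genotype. Of 12 colon epithelial markers 5 had a row, and all 4 that were tested rose, with sums of 55.7 to 58.5 CPM in wild-type and 171 to 185 CPM in the knock-out, led by the keratin genes Krt18 and Krt20 and the cadherin gene Cdh17 (log2 changes 1.51, 1.79 and 2.02). Krt8, a keratin of simple epithelia, had 1, 1 and 2 counts in wild-type and 16, 37 and 25 in the knock-out, and Vil1, of the intestinal brush border, had 6, 1 and 3 and then 3, 3 and 1 and was not tested. Krt8 and Vil1, named here after their values were seen, were thus near 0 in wild-type, but the other markers of the list with a row were not. In wild-type Krt18 had 516, 371 and 354 counts, Krt20 had 183, 147 and 144, and Cdh17 had 39, 26 and 16. The remaining 7 markers of the list were not analysed here. Of 9 tested fibroblast and endothelial markers 8 rose, with sums of 1039 to 1057 CPM in wild-type and 1549 to 1589 CPM in the knock-out. The smallest p-values were those of Col3a1, Col1a1 and Acta2 (log2 changes 2.83, 1.58 and 4.67). Most of the wild-type sum was Col1a2, which went from 880 to 1009 CPM (log2 change 0.20). Acta2 had 4, 0 and 1 counts in wild-type and 53, 38 and 45 in the knock-out. Of 3 tested immune markers, Lyz2 rose (3.93), Csf1r fell (-1.19) and Cd68 was not called, and Ptprc, the pan-leukocyte marker, had at most 4 counts in any library. Krt8, Acta2, Des and Lyz2 passed the filter through the knock-out alone, so these 4 had to differ. The part of these shifts in the values of Magea10, Taf7l or any other gene of the set was not tested.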

How the data were processed

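RNA-seq read counts per gene, deposited by the authors as a single table, were used as deposited. Per the submitters' processing notes, the tools were fastp, STAR and HTSeq among others and the build mm10; the sources used here give no roles, versions, annotation or strand setting for the counts. Every row has reads in at least 3 of the 6 libraries, so genes with fewer are not analysed here. The genes and all gene lists were chosen with earlier results of these data known. Genes were kept by filterByExpr (minimum count 10, total 15), scaled by TMM and tested with edgeR 4.0.16 in R 4.3.3 (glmQLFit with robust = TRUE, glmQLFTest), knock-out against wild-type, 3 libraries each, with Benjamini-Hochberg adjustment over all 13013 genes tested. SE is the absolute log2 fold change over the square root of F. The common biological coefficient of variation was 5.03%. The calculation was tested on simulated data. Symbols were found for 17650 of 17718 gene IDs in the reference list of gene names. RefSeq (GRCm38.p6) gave positions for 11923 of the genes tested. Genes named are the Mage genes, called genes of at least 2-fold, those absent in 1 genotype, the 10 with the highest mean CPM, the others by family, and the 3 with the smallest p of each list. Pcgf6, Mga, E2f6, Dnmt3b, Tet2, Dnmt3a, Krt8, Vil1, Des, Col1a2, Cd68 and Ptprc were added after their values were seen. Intervals and floors of 3 counts cover counting error only. Alternatives were RLE, upper-quartile and library-size scaling, other filters, a threshold of 0.01, DESeq2 1.42.0, limma 3.58.1 (voom), removal of chromosome medians and leaving out each library. The CUT&Tag and single-cell samples were not used here.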

Additional observations from a re-analysis of the deposited data

How the results depend on the processing

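The number of genes of the set that passed stayed between 13 and 19 over all alternatives, against 17, and leaving out 1 library gave 13 to 19. Leaving out sg2 gave the lowest count, with 6 higher in place of 9. Over all genes the count lay between 7513 and 9085. Upper-quartile and library-size scaling moved the median log2 fold change of all genes from 0.02 to 0.17 and 0.14; the table then split into 5587 higher and 3183 lower, or 5266 and 3440, against 4301 and 4320, and the set into 12 and 7, or 10 and 8, against 9 and 8. By family, other Tex genes gave 3 calls in place of 5 with chromosome medians removed and 2 to 5 when 1 library was left out; type I MAGE genes gave 5 in place of 3 with no filter, when 0 genes are below it in place of 13; and type II MAGE genes gave 1, Maged1, with upper-quartile and with library-size scaling. Signs turned for Tex10 (0.083 with upper-quartile and 0.047 with library-size scaling), Tdrd3 (-0.33 with chromosome medians removed; from -0.044 without sg2 to 0.034 without sg1 when 1 library was left out) and Maged1 (-0.044 with chromosome medians removed; from -0.031 without sg2 to 0.045 without sg3). The causes of these changes were not tested, beside the median shift that the scaling itself makes. Over the 27 tested genes and all alternatives, 366 values kept their direction and side of the threshold, 18 lost the call, 6 gained one and 15 turned sign, in 6 genes; those of Spata24, Spata25 and Sycp3 are among the last and were never called. With 1 count worth 0.0786 to 0.108 CPM, the 13 genes below the filter cannot show changes of a few reads. No paired analysis was possible because the knock-out columns carry no replicate number of the labels.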
